A study of Mus musculus with 4 samples.

Results

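Interferon-stimulated genes are the effector genes that cells switch on when an interferon binds its receptor. The set described here was a list of 41 such mouse genes, matched by symbol to Ensembl genes. Of these, 40 were listed for all 4 RNA-seq libraries of the study, among 30731 genes listed for all 4. Mx2 was listed for ILC2 and NK alone, with 2 counts in ILC2 and 3 counts in NK, and enters no comparison.

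The study profiled innate lymphoid cells of 3 groups whose chromatin contacts were mapped by Hi-C. MNK-3, the group 3-like cells, is a cell line that arose from NIH-Swiss fetal thymocytes taken at day 15 and was kept in IL-7 plus IL-15 at 10 ng/ml, with 2 libraries (replicates 1 and 2). ILC2, the group 2 cells, came from bone marrow of C57BL/6 mice of 8 to 12 weeks grown with IL-33, IL-25, IL-7 and IL-2, each at 10 ng/ml, with 1 library. NK cells, from group 1, came from spleen of C57BL/6 mice of 8 to 12 weeks, with 1 library and no culture stated. All cells were wild type, none was stated to have been given an interferon, the ILC2 and NK mice were pooled, and a single line stands for group 3. Cell type therefore cannot be told apart from tissue, culture, strain, adult or fetal origin and, for MNK-3, the shorter gene list used in counting.

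Type I interferons act through the receptor chains encoded by Ifnar1 and Ifnar2, type II interferon (interferon gamma) through Ifngr1 and Ifngr2, and type III interferons through Ifnlr1 and Il10rb. The kinases JAK1, JAK2 and TYK2 then phosphorylate STAT transcription factors. With IRF9 these bind the interferon-stimulated response element (ISRE), and without it the gamma-activated site (GAS). Some genes of the response are also held at a basal level without added interferon. In lymphoid cells the products sense foreign nucleic acid, block viral RNA and its translation, modify proteins, and attack the membranes around intracellular microbes.

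The libraries held 25617762 reads in shared genes for MNK-3 replicate 1, 15177345 for MNK-3 replicate 2, 9298162 for ILC2 and 4637812 for NK. Levels are given as CPM, that is, counts scaled to these totals, and 3 counts, used as the floor for a gene with none, came to 0.117 to 0.647 CPM. MNK-3 replicate 1 stood apart, with 75.8% of its reads outside genes against 23.1% to 47.1% in the other libraries, and with a count in 95.5% of shared genes against 69.6% to 76.0%. The 9012 genes without a count in MNK-3 replicate 2 had a median of 0.781 CPM in replicate 1, with a 95th percentile of 5.15 CPM. Defining markers mostly matched the labels. Il23r, a group 3 marker, had 209 and 306 CPM in the MNK-3 libraries against 0 CPM in ILC2 and NK, Il13 had 1663 CPM in ILC2 against at most 10.9 CPM elsewhere, and Ncr1 had 1114 CPM in NK against at most 4.94 CPM elsewhere. Il22, also a group 3 marker, was low in MNK-3 at 7.73 and 8.76 CPM. Among the 6 ILC2 markers, 5 were highest in ILC2, while Il17rb, a receptor gene for IL-25, went against the label with 25.8 and 2.504 CPM in MNK-3, 3.98 CPM in ILC2 and 3.88 CPM in NK. Marker sums of other cell types differed as well. The 8 T cell markers summed to 124 and 5.67 CPM in MNK-3, 12.5 CPM in ILC2 and 35.2 CPM in NK. The 10 myeloid markers summed to 47.2 and 3.36 CPM in MNK-3, 21.2 CPM in ILC2 and 265 CPM in NK, where Itgam, which NK cells also express, held 233 CPM. The 8 markers of plasmacytoid dendritic cells, the main interferon producers, summed to 184 and 90.3 CPM, 138 CPM and 225 CPM in the same order. Most of the ILC2 and NK sums came from Runx2, at 81.4 CPM in ILC2 and 117.5 CPM in NK, and Tcf4, at 46.35 and 87.1 CPM. Siglech was at 3.94 CPM in MNK-3 replicate 1 and at most 0.647 CPM elsewhere. The part of these cells in the levels below was not tested, and in bulk RNA fewer cells of a type and less RNA per cell cannot be told apart.

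Promoter windows were matched for 29 of the 40 members (RefSeq, GRCm38.p6, 250 bases before to 50 after the gene start). The ISRE core, a pair of GAAA letters with any 2 bases between them, searched on both strands, was in 18 of the 29 windows (62.1%), against 3.99% of 27025 genes. The GAS letters TTCNNNGAA were in 10 of the 29 (34.5%), against 9.55% of genes, and the 2 motifs can overlap by their GAA. A match describes letters and is not shown to be a bound site. The stretches below are read 5′ to 3′ on the gene's strand, with motif matches in capitals, where paired TTTC letters are the ISRE core of the other strand. Isg15 (chr4:156200867-156200904, minus), Ifit1 (chr19:34640777-34640821, plus) and Irgm1 (chr11:48871427-48871458, minus) are shown as genes with repeated ISRE cores and no GAS match. Ifit3 (chr19:34583365-34583424, plus) and Ifit3b (chr19:34607761-34607820, plus) are shown because these neighbouring copies carry the same letters. Igtp (chr11:58199503-58199539, plus), Irgm2 (chr11:58214894-58214930, plus) and Bst2 (chr8:71537579-71537616, minus) are shown as genes with both motifs side by side. Gbp3 (chr3:142559991-142560022, plus) and Gbp7 (chr3:142530222-142530300, plus) belong to the guanylate-binding protein family, highest in NK for 5 of its 6 members. Ifit2 (chr19:34550445-34550469, plus) and Isg20 (chr7:78913343-78913367, plus) had a GAS match and no ISRE core in this window.
Isg15: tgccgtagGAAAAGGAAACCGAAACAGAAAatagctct
Ifit1: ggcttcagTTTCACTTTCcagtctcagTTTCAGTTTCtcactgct
Irgm1: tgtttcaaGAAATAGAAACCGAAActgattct
Ifit3: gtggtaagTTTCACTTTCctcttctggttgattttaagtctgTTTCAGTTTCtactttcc
Ifit3b: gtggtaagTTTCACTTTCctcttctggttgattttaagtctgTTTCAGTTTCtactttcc
Igtp: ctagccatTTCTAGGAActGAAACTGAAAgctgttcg
Irgm2: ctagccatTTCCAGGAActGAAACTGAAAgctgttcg
Bst2: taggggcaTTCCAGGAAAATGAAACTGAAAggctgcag
Gbp3: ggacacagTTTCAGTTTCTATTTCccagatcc
Gbp7: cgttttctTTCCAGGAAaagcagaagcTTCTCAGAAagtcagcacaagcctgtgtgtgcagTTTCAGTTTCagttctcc
Ifit2: atgggagcTTCCTGGAAgaatggat
Isg20: ggggagggTTCTTGGAAtttttcct

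Interferon-stimulated genes were expressed in all 3 cell types, at different members. At 10 CPM or more stood 29 members in MNK-3 replicate 1 and 24 in replicate 2, 18 in ILC2 and 23 in NK. The 40 members summed to 1349 and 1316 CPM in MNK-3, 908 CPM in ILC2 and 1970 CPM in NK. Among the 30 members at 10 CPM or more in any library, NK was the highest cell type for 15 with no overlap with the other libraries, against 17.2% of the 13151 genes at that level. ILC2 was the lowest for 16, against 33.7% of genes, and the highest for Igtp alone, against 16% of genes. MNK-3 was the highest for 9, against 37.5% of genes, and the lowest for 6, against 10.2% of genes. NK was the lowest for 5, against 34.2% of genes. The count with ILC2 lowest was 8 with TMM scaling (trimmed means of log ratios) and 9 with median-of-ratios scaling. The count with MNK-3 highest was 5 with median-of-ratios scaling. The count with NK highest was 11 with TMM scaling and 13 with median-of-ratios scaling. The shares of all genes above belong to the main scaling alone, so the rescaled counts have no matching share. Among the 15 were Ifih1 and Trim25, whose direction turned with the scaling for MNK-3 over NK and for ILC2 over NK, respectively. For Ifih1, Trim25, Ddx58 and Irgm2 the NK library and MNK-3 replicate 2 were within counting error.

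**Figure D1:**
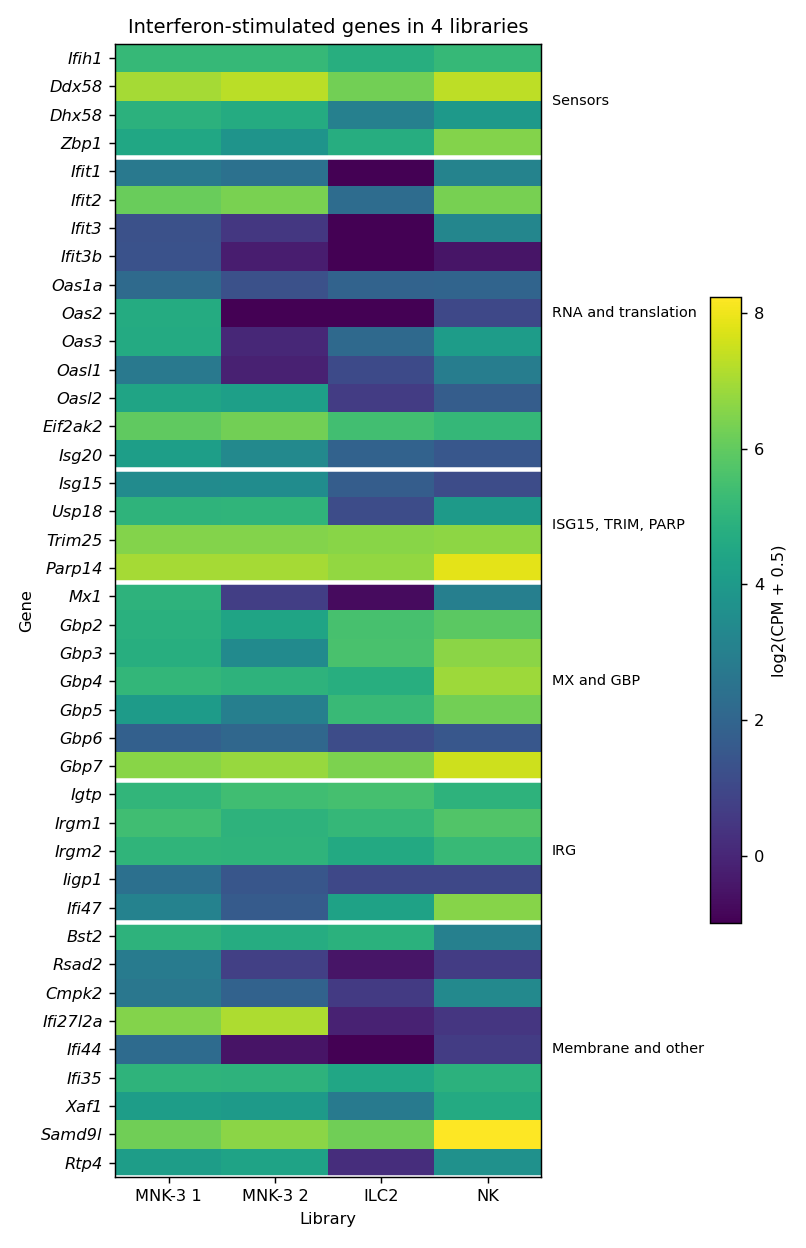
Level of each of the 40 interferon-stimulated genes (rows, by role) in the 4 libraries (columns), as log2(CPM + 0.5) on the colour scale. The Gbp genes other than Gbp6 are brightest in NK, Ifi27l2a is bright in MNK-3 alone, and the 4 Ifit rows are darkest in ILC2.

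Among the sensors, the RNA helicase genes Ddx58 and Ifih1 were at similar levels in MNK-3 and NK, Dhx58 was highest in MNK-3, and Zbp1 was highest in NK. Ddx58, which encodes the RNA sensor RIG-I, had 125 and 156 CPM in MNK-3, 77.3 CPM in ILC2 and 158 CPM in NK. MNK-3 replicate 2 and NK were within counting error for Ddx58 and ILC2 was the lowest library, and no comparison of it passed. Ifih1, which encodes MDA5, had 35.5 and 35.9 CPM in MNK-3, 26.9 CPM in ILC2 and 36.2 CPM in NK. Dhx58, which encodes the regulator LGP2, had 30.3 and 25.2 CPM in MNK-3, 7.53 CPM in ILC2 and 14.9 CPM in NK, so both MNK-3 libraries lay above both other cell types. Zbp1, a sensor of Z-form nucleic acid that can start cell death, had 21.9 and 13.2 CPM in MNK-3, 26.7 CPM in ILC2 and 90.6 CPM in NK. NK was the highest library and the MNK-3 pair lay below ILC2. Zbp1 (chromosome 2, 173206612 to 173218923, minus strand, GRCm38) fell in MNK-3 against NK (log2 fold -2.28, SE 0.66, adjusted p 0.0251 in limma voom).

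Several genes that act on viral RNA and translation were nearly silent in ILC2. Ifit2, whose product binds viral RNA and restrains translation, had 68.7 and 83.2 CPM in MNK-3, 4.30 CPM in ILC2 and 80.4 CPM in NK. ILC2 stood alone at the low end, with a level 18.7 times below NK (ILC2 over NK 0.0535, exact 95% counting interval 0.0376 to 0.0742) and 15.97 and 19.3 times below the MNK-3 libraries. Ifit1, of the same family, had 6.13 and 4.94 CPM in MNK-3, 0 CPM in ILC2 and 8.19 CPM in NK. Against the floor of 3 counts per library, Ifit1 was at least 25.4-fold lower in ILC2 than in NK, and at least 19.0-fold and 15.3-fold higher in the MNK-3 libraries than in ILC2. Ifit3 had 1.95 and 0.922 CPM in MNK-3, 0 CPM in ILC2 and 9.06 CPM in NK, so NK was the highest library. Ifit3b had 1.99 and 0.329 CPM in MNK-3, 0 CPM in ILC2 and 0.216 CPM in NK. Ifit3 and Ifit3b share 57.3% of the 38-base words of Ifit3, so the split of their reads is uncertain. In the limma voom fit no Ifit gene passed in any comparison, with SEs for Ifit2 of 2.90 for MNK-3 over ILC2 and 2.94 for ILC2 over NK on the log2 scale.

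Genes of the oligoadenylate synthetase family, which includes activators of RNA decay on double-stranded RNA, differed most between the MNK-3 libraries themselves. Oas2 had 24.9 and 0 CPM in MNK-3 (637 counts and none), 0 CPM in ILC2 and 1.51 CPM in NK. Oas3 had 24.6 and 0.527 CPM in MNK-3, 3.98 CPM in ILC2 and 16.6 CPM in NK. Oasl1 had 6.17 and 0.395 CPM in MNK-3, 1.61 CPM in ILC2 and 7.12 CPM in NK. For all 3 the MNK-3 libraries lay on either side of ILC2 or NK, and no order with MNK-3 can be read from them. Oasl2, an OAS-like gene, was steady in the MNK-3 pair at 20.8 and 18.3 CPM. It had 1.08 CPM in ILC2 and 2.80 CPM in NK. The MNK-3 libraries were 7.41 and 6.51 times the NK level of Oasl2 (exact 95% counting intervals 4.29 to 14.0 and 3.75 to 12.4). Oas1a stayed at 1.98 to 4.06 CPM in all libraries and shares 64.5% of its words with Oas1g.

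Eif2ak2, which encodes the kinase PKR that stops translation on double-stranded RNA, was one of the few members lowest in NK. It had 62.4 and 77.5 CPM in MNK-3, 43.2 CPM in ILC2 and 35.1 CPM in NK. Isg20, an exonuclease gene, had 17.4 and 9.69 CPM in MNK-3, 3.23 CPM in ILC2 and 2.37 CPM in NK. Both MNK-3 libraries lay above the others for both genes, and neither gene passed the test in any comparison.

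Of the 4 genes of protein modification, Isg15 and Usp18 had their highest levels in MNK-3 and Parp14 in NK, while Trim25 was nearly even. None passed in any comparison in limma voom. Parp14 alone had an unadjusted p under 0.05, in both comparisons with NK, and limma trend called Usp18 higher in MNK-3 than in ILC2, and Usp18 and Parp14 lower in ILC2 than in NK. Isg15, the ubiquitin-like modifier, had 10.6 and 10.7 CPM in MNK-3, 2.80 CPM in ILC2 and 1.72 CPM in NK. The MNK-3 libraries were 6.13 and 6.19 times NK for Isg15 (exact 95% counting intervals 3.07 to 14.4 and 3.07 to 14.6), on 8 counts in NK, and 3.78 and 3.82 times ILC2. Usp18, which removes ISG15 and also damps the type I receptor, had 31.7 and 32.5 CPM in MNK-3, 1.72 CPM in ILC2 and 15.96 CPM in NK. ILC2 was far below the rest, with the MNK-3 libraries at 18.4 and 18.9 times its level (exact 95% counting intervals 11.3 to 32.4 and 11.5 to 33.3). Trim25, which activates RIG-I, was nearly even at 90.3 and 92.1 CPM in MNK-3, 95.5 CPM in ILC2 and 102 CPM in NK. Parp14, an ADP-ribosyltransferase gene, had 127 and 126 CPM in MNK-3, 105 CPM in ILC2 and 234 CPM in NK, where it was highest, but did not pass for MNK-3 over NK (-0.89 on the log2 scale, SE 0.38, adjusted p 0.48 in limma voom).

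The guanylate-binding proteins, GTPases that attack vacuoles of intracellular microbes and are classic targets of interferon gamma, were highest in NK for 5 of 6 genes. Gbp3 had 27.5 and 10.1 CPM in MNK-3, 47.4 CPM in ILC2 and 98.1 CPM in NK. Gbp4 had 34.2 and 31.0 CPM in MNK-3, 27.3 CPM in ILC2 and 117 CPM in NK. Gbp5 had 16.4 and 7.51 CPM in MNK-3, 37.6 CPM in ILC2 and 75.7 CPM in NK. The NK library was above all others for these 3, and for Gbp3 and Gbp5 the MNK-3 pair also lay below ILC2. Gbp3 (chromosome 3, 142560026 to 142573209, plus strand) fell in MNK-3 against NK (log2 fold -2.31, SE 0.64, adjusted p 0.0179 in limma voom), as did Gbp4 (chromosome 5, 105115767 to 105139586, minus strand) with -1.83 (SE 0.53, adjusted p 0.029). Gbp5 missed the threshold at -2.54 (SE 0.80, limma voom, adjusted p 0.0639). Gbp7, the most abundant of the family, had 96.8 and 111 CPM in MNK-3, 85.0 CPM in ILC2 and 186 CPM in NK, and Gbp2 had 28.3 and 20.4 CPM, 46.7 CPM and 59.7 CPM in the same order. Neither passed in any comparison. Gbp6 stayed at 1.72 to 3.76 CPM and shares 62.3% of its words with other genes, and Gbp4 overlaps Gbp8 and Gbp9 on its strand, so their counts are uncertain.

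Mx1, a dynamin-like GTPase gene that blocks viral nucleocapsids, again separated the MNK-3 libraries. It had 30.8 and 1.12 CPM in MNK-3, 0.108 CPM in ILC2 (1 count) and 7.33 CPM in NK. NK lay between the MNK-3 libraries, and ILC2 was 68.2 times below NK (ILC2 over NK 0.0147, exact 95% counting interval 0.000361 to 0.0874).

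Immunity-related GTPases, which also act at vacuoles, were near each other in all 3 cell types except for Ifi47. Irgm1 had 41.6 and 31.0 CPM in MNK-3, 34.6 CPM in ILC2 and 52.2 CPM in NK. Irgm2 had 32.7 and 31.8 CPM in MNK-3, 23.9 CPM in ILC2 and 36.9 CPM in NK, and Igtp, its neighbour on the same strand with which it overlaps, had 33.0 and 42.0 CPM, 44.7 CPM and 30.8 CPM in the same order. The windows of Igtp and Irgm2 printed above hold the same pair of motifs at the same spacing. Ifi47 had 8.08 and 2.64 CPM in MNK-3, 19.4 CPM in ILC2 and 94.9 CPM in NK. NK was the highest library and the MNK-3 pair the lowest, at 11.7 and 36.0 times below NK (MNK-3 over NK 0.0852 and 0.0278, exact 95% counting intervals 0.0719 to 0.101 and 0.0196 to 0.0384). Ifi47 (chromosome 11, 49076587 to 49096974, plus strand, overlapping Olfr56) fell in MNK-3 against NK (log2 fold -4.06, SE 1.25, adjusted p 0.0493 in limma voom). Iigp1 was at 1.51 to 4.76 CPM throughout.

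The remaining members held the widest contrasts. Ifi27l2a, a small mitochondrial and membrane protein gene, had 92.3 and 136 CPM in MNK-3, 0.43 CPM in ILC2 and 0.862 CPM in NK, with 4 counts in each of the ILC2 and NK libraries. The MNK-3 libraries were far above both others, at 107 and 158 times NK (exact 95% counting intervals 41.8 to 393 and 61.7 to 581) and 215 and 317 times ILC2. In the fit its log2 fold for MNK-3 over NK was 6.80 with an SE of 5.91, and it did not pass (limma voom, adjusted p 1). Rtp4, a chaperone gene for some receptors, had 17.0 and 20.03 CPM in MNK-3, 0.645 CPM in ILC2 (6 counts) and 12.3 CPM in NK. ILC2 stood apart, with the MNK-3 libraries at 26.3 and 31.0 times its level (exact 95% counting intervals 12.0 to 72.1 and 14.1 to 85.3). Rtp4 shares 14.2% of its words with an overlapping gene model.

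Samd9l, which encodes an inhibitor of translation and cell growth, had 74.3 and 98.7 CPM in MNK-3, 74.1 CPM in ILC2 and 301 CPM in NK, so NK stood above all others. Samd9l (chromosome 6, 3372257 to 3399572, minus strand) fell against NK in MNK-3 (log2 fold -1.85, SE 0.36, adjusted p 3.28e-05 in limma voom) and in ILC2 (-2.02, SE 0.50, adjusted p 0.00666). These comparisons share the single NK library. The call against NK was lost in 3 of 7 alternatives for MNK-3 and in 4 of 6 for ILC2, with log2 folds of -1.998 to -1.77 and -2.07 to -1.67 throughout. Bst2, which encodes tetherin, the protein that holds budding virus at the cell surface, ran the other way, with 31.1 and 25.6 CPM in MNK-3, 29.0 CPM in ILC2 and 7.55 CPM in NK. MNK-3 and ILC2 overlapped for Bst2 and lay above NK, yet it did not pass (limma voom, adjusted p 1 for MNK-3 over NK). For Ifi35, an adaptor gene, the directions of MNK-3 against ILC2 and against NK turned with the scaling, so no order with MNK-3 is given. Ifi35 had 31.7 and 30.8 CPM in MNK-3, 21.6 CPM in ILC2 and 29.8 CPM in NK. Xaf1, a gene that favours cell death, had 17.3 and 16.01 CPM, 6.56 CPM and 24.8 CPM in the same order. Rsad2 (viperin), Cmpk2 and Ifi44 stayed under 10 CPM in all libraries.

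Per kilobase of exon, which allows levels of different genes to be compared, Ifi27l2a led in MNK-3 at 199 and 295 CPM per kb, followed by Bst2 at 34.5 and 28.4 CPM per kb. In ILC2 Bst2 led at 32.2 CPM per kb, ahead of Igtp at 22.1 CPM per kb. In NK the leading genes were Samd9l at 55.4, Ifi47 at 38.4 and Gbp7 at 33.2 CPM per kb, while Bst2 had 8.36 and Ifi27l2a 1.86 CPM per kb. A different gene thus led in each cell type.

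**Figure D2:**
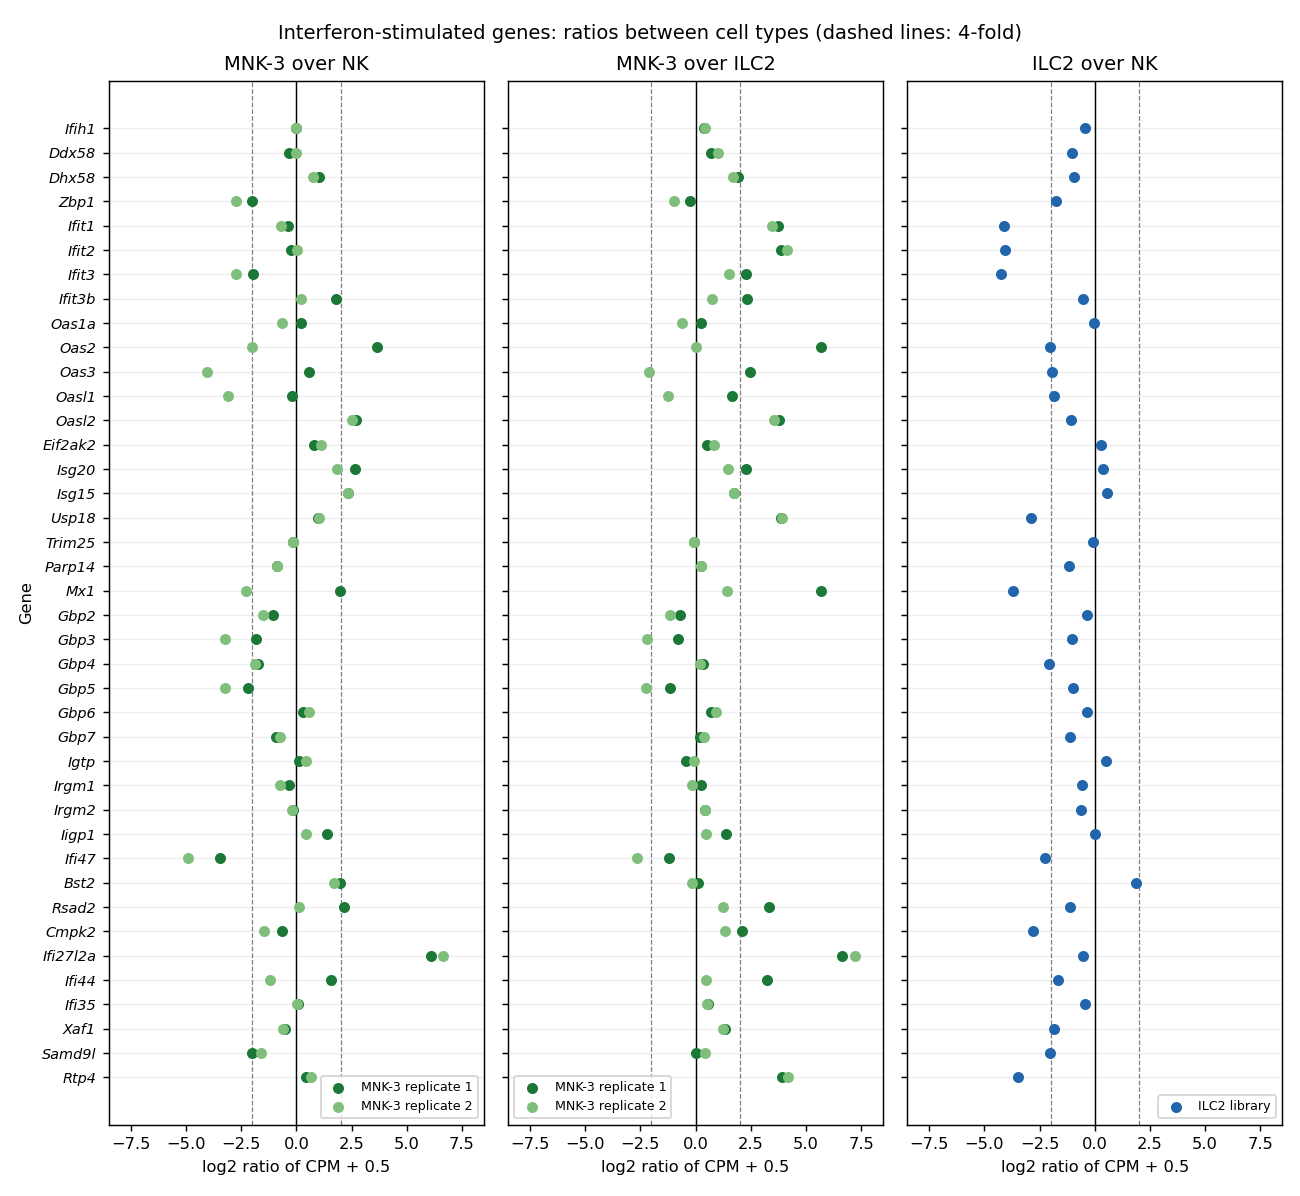
Log2 ratio of CPM + 0.5 between cell types (x axis) for each interferon-stimulated gene (y axis), with 1 point per MNK-3 or ILC2 library and dashed lines at 4-fold. Ifi27l2a lies far to the right in both MNK-3 panels, Ifi47 and Samd9l lie left of 0 in the MNK-3 over NK panel, and in the ILC2 over NK panel no gene lies right of the 4-fold line.

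MNK-3 and NK set the response in the group 3 line beside that in group 1 cells. Gbp3, Gbp4, Zbp1, Ifi47 and Samd9l were lower in MNK-3 and passed the test, and no member passed as higher. Of the 40 members 5 passed and all 5 were lower in MNK-3 (Samd9l, Gbp3, Zbp1, Gbp4 and Ifi47), against 2.33% of the 25283 genes tested (590 genes, 0.289% higher and 2.04% lower). By size, meaning a 4-fold ratio with 10 CPM reached in the higher group, 5 members were higher in MNK-3 (Oas2, Oasl2, Isg20, Isg15 and Ifi27l2a) and 4 were lower (Zbp1, Gbp3, Gbp5 and Ifi47), of 30 that could pass. The same held for 16.5% of genes (higher) and 4.5% (lower), so the share of members that were higher was near that of all genes. Without MNK-3 replicate 1 these counts were 3 higher and 5 lower, with median-of-ratios scaling they were 2 and 5, and Oas2 is at 0 in replicate 2. The median log2 ratio of the members was -0.12, beside 0.69 over all genes at 10 CPM or more, a gap of -0.81 that was -0.71 and -0.63 with TMM and median-of-ratios scaling. Over 7 alternatives of scaling, filter and fit, Samd9l and Ifi47 passed in 4 each and Gbp3, Gbp4 and Zbp1 in 3 each, with adjusted p from 1.16e-06 to 1 in limma. Their log2 folds stayed negative in all 7, from -4.66 to -4.06 for Ifi47 and from -2.97 to -1.75 for the others.

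The comparison of MNK-3 with ILC2 sets 2 cultured populations side by side. Ifit2, Usp18, Rtp4, Oasl2 and Ifi27l2a were many times higher in both MNK-3 libraries, while Gbp3, Gbp5, Gbp2 and Ifi47 were lower in both. None of the 40 members passed in limma voom, against 3.27% of genes (0.902% higher and 2.37% lower). None had an unadjusted p under 0.05, beside 2000 of all 25283 genes tested. With limma trend 4 members passed as higher (Ifit2, Usp18, Rtp4 and Ifi27l2a) and 2 as lower (Gbp3 and Gbp5). The limma trend fit called 1321 higher and 754 lower among all 25283 genes tested. By size 7 of 30 members were 4-fold or more higher in MNK-3 (Ifit2, Oas2, Oasl2, Usp18, Mx1, Ifi27l2a and Rtp4) and 0 were lower, beside 14.2% and 3.88% of genes. Without MNK-3 replicate 1 the split was 5 higher and 3 lower, and with median-of-ratios scaling it was also 5 and 3. The median log2 ratio was 0.85, beside 0.67 over all genes at 10 CPM or more. Directions of small ratios turned with the scaling for 10 members, among them Gbp4, Gbp7, Parp14, Samd9l and Bst2, so no direction is given for these.

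The comparison of ILC2 with NK sets the primary cells apart. Samd9l passed as lower in ILC2, and Ifit2, Usp18, Rtp4, Gbp4 and Ifi47 were 4-fold or more lower by size without passing. Of the 40 members Samd9l alone passed, lower in ILC2, against 1.3% of genes (0.479% higher and 0.819% lower). An unadjusted p under 0.05 in limma voom was reached by 5 of the 40 members, beside 1039 of all 25283 genes tested. By size 6 of 24 members were 4-fold or more lower in ILC2 and 0 higher, beside 7.03% and 9.78% of genes, and with TMM and median-of-ratios scaling 3 and 4 were lower and 1 was higher. The median log2 ratio of the members was -1.05, beside -0.11 over all genes at 10 CPM or more, and the gap of -0.95 was -0.95 with both other scalings. In every comparison, MNK-3 over NK included, the spread of the single ILC2 and NK libraries is taken from MNK-3. The labels do not say whether the MNK-3 libraries are separate cultures or technical replicates, so p-values may measure technical spread alone, and the fit pooled that spread over genes, so low counts carried large errors.

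Within the MNK-3 line 30 of 40 members lay within 2-fold between the libraries, and 6 were more than 4-fold apart, all higher in replicate 1 (Oas2, Oas3, Oasl1, Mx1, Rsad2 and Ifi44). Among the 29 members at 10 CPM or more in either library 3 were over 4-fold apart (10.3%), beside 20.5% of 12631 genes. Replicate 1 had 788 counts of Mx1 against 17 in replicate 2, a ratio of 27.5 (exact 95% counting interval 17.0 to 47.4). Isg15, Usp18, Parp14 and Trim25 differed by less than counting error between the libraries. The levels of Oas2, Oas3 and Mx1 in replicate 1 were 24.6 to 30.8 CPM. These were above the 5.15 CPM that bounded 95% of the genes absent from replicate 2. Oasl1 at 6.17 and Rsad2 at 6.64 CPM were just above it, and Ifi44 at 4.22 CPM was below it. Per kilobase of exon the bound was 4.222 CPM per kb. Oas2 at 5.59 and Mx1 at 8.13 CPM per kb were above that bound. Oas3 at 3.47, Oasl1 at 2.365, Rsad2 at 1.53 and Ifi44 at 0.688 CPM per kb were below it. The cause of these differences was not tested.

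**Figure D3:**
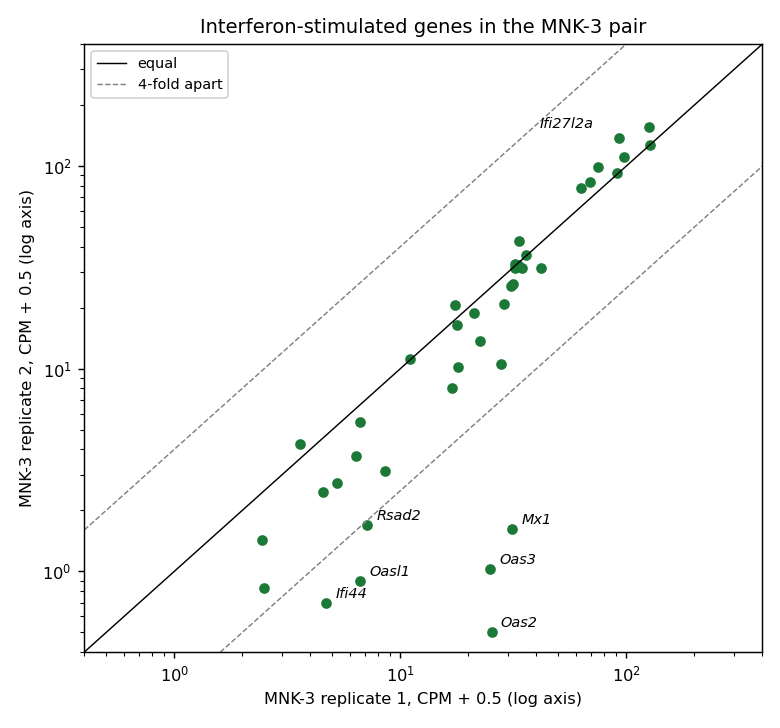
CPM + 0.5 of each interferon-stimulated gene in MNK-3 replicate 1 (x axis, log) and replicate 2 (y axis, log), with the line of equal levels and dashed lines at 4-fold. Most points follow the line of equality, while Oas2, Oas3, Mx1, Oasl1, Ifi44 and Rsad2 lie to the lower right, higher in replicate 1.

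The genes upstream of the response were compared from lists that name ligands, receptors, kinases, STATs and IRFs. Of 21 interferon genes listed, only Ifng, which encodes interferon gamma, reached 10 CPM in any library. Ifng had 2.38 and 0 CPM in MNK-3, 0.215 CPM in ILC2 and 53.0 CPM in NK, where it was highest, and it did not pass (limma voom, adjusted p 1 for MNK-3 over NK). The type I and type III interferon genes were at 3.71 CPM or less in MNK-3 replicate 1 and at 0.647 CPM or less in the other libraries. With low reads in so many silent genes of replicate 1, no expression is read from them.

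Receptor chains were present in all cell types, with the widest differences in the interferon gamma receptor. Ifngr1, its ligand-binding chain, had 260 and 345 CPM in MNK-3, 99.5 CPM in ILC2 and 934 CPM in NK. It passed in all 3 comparisons, lower in MNK-3 than in NK (-1.67 on the log2 scale, SE 0.25, adjusted p 4.94e-09 in limma voom), higher in MNK-3 than in ILC2 (1.56, SE 0.38, adjusted p 0.00211) and lower in ILC2 than in NK (-3.23, SE 0.41, adjusted p 5.07e-12). The Ifngr1 calls for MNK-3 over ILC2 and for ILC2 over NK were lost with TMM and with median-of-ratios scaling. Ifngr2, the signalling chain, was lowest in NK, without passing. It had 66.1 and 80.4 CPM in MNK-3, 45.9 CPM in ILC2 and 3.45 CPM in NK (16 counts). Ifnar1 had 80.0 and 83.1 CPM in MNK-3, 83.4 CPM in ILC2 and 125 CPM in NK, and Ifnar2 had 42.3 and 39.3 CPM, 40.98 CPM and 72.4 CPM in the same order. Il10rb, shared with the IL-10 receptor, had 28.0 and 13.0 CPM in MNK-3, 31.1 CPM in ILC2 and 129 CPM in NK, and fell in MNK-3 against NK (-2.58 on the log2 scale, SE 0.57, adjusted p 0.00055 in limma voom). Ifnlr1 had 8.51 and 0.922 CPM in MNK-3, 0.86 CPM in ILC2 and 1.72 CPM in NK.

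The receptor-associated kinases differed between the cell types. Jak1 had 423 and 557 CPM in MNK-3, 817 CPM in ILC2 and 3054 CPM in NK, and passed in all 3 comparisons. The Jak1 call for ILC2 over NK was lost with TMM and with median-of-ratios scaling. Jak2 had 104 and 128 CPM in MNK-3, 792 CPM in ILC2 and 179 CPM in NK, and was lower in MNK-3 than in ILC2 (log2 fold -2.80, SE 0.26, adjusted p 9.13e-25 in limma voom). Stat2 had 75.4 and 42.3 CPM in MNK-3, 43.3 CPM in ILC2 and 46.6 CPM in NK, with no order.

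Of 7 IRF genes 3 fell in MNK-3 against NK (Irf1, Irf2 and Irf8), beside 2.04% of all genes, 0 passed for MNK-3 over ILC2 in limma voom (0 at an unadjusted p under 0.05), and 2 fell in ILC2 against NK (Irf1 and Irf8), beside 0.819% of genes. The Irf1 and Irf8 calls for ILC2 over NK were lost with TMM and with median-of-ratios scaling. Irf8, a lymphoid and myeloid regulator, had 52.0 and 60.8 CPM in MNK-3, 15.5 CPM in ILC2 and 538 CPM in NK. Irf7, the amplifier of type I interferon, had 48.3 and 31.4 CPM in MNK-3, 6.35 CPM in ILC2 and 70.5 CPM in NK, and Irf9 had 62.9 and 56.9 CPM, 31.6 CPM and 79.8 CPM in the same order. In CPM, ILC2 was the lowest library for both, an order that 33.7% of genes at 10 CPM or more also had. Neither gene passed in any comparison. Of the 9 listed genes that lead to interferon production 0 passed in any comparison in limma voom, and 0 had an unadjusted p under 0.05. Over all genes 2.33% passed for MNK-3 over NK, 3.27% for MNK-3 over ILC2 and 1.3% for ILC2 over NK. At an unadjusted p under 0.05 in limma voom stood 1312, 2000 and 1039 of 25283 genes in the same order. Of 6 inhibitors Socs3 alone passed, lower in MNK-3 than in ILC2, beside 2.37% of all genes that passed as lower. Socs3 had 32.6 and 10.3 CPM in MNK-3, 128 CPM in ILC2 and 77.2 CPM in NK.

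**Figure D4:**
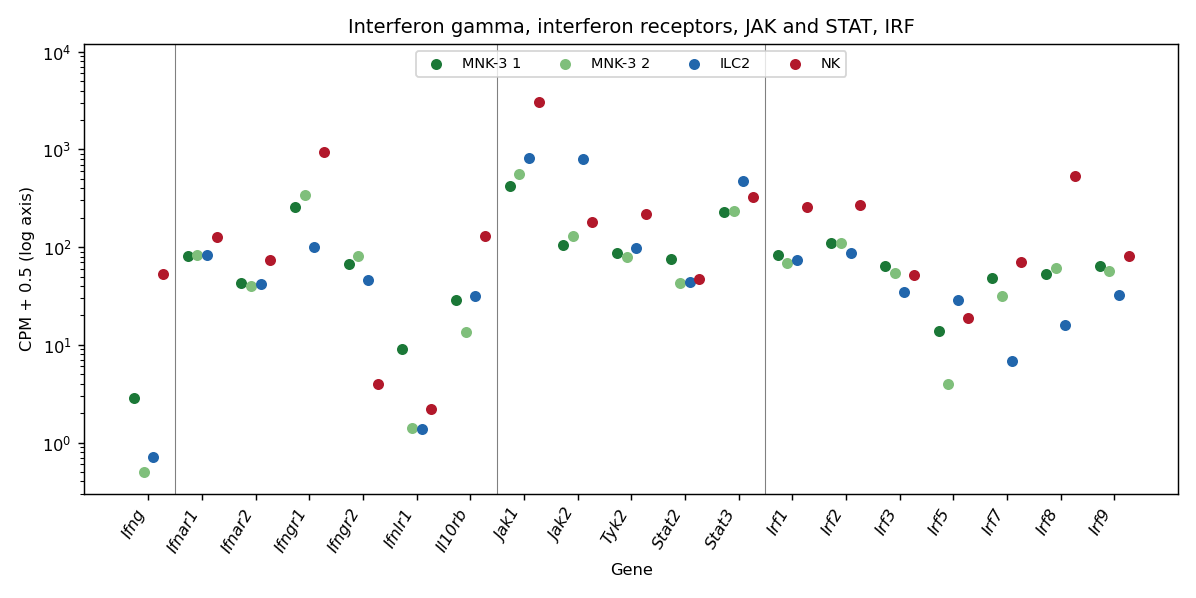
CPM + 0.5 (log axis) of Ifng, the receptor chains, kinases and STATs, and IRF genes in the 4 libraries, with 1 point per library. NK is highest for Ifng, Ifngr1, Jak1 and Irf8 and lowest for Ifngr2, and ILC2 is highest for Jak2.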

How the data were processed

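RNA was profiled in 2 MNK-3 libraries, 1 ILC2 library and 1 NK library, sequenced as read pairs after a stranded total RNA kit, per the labels' protocols. The deposited values are whole-number read counts per gene, not normalized (unit recorded as other), made with STAR 2.7.8a and HTSeq on mm10/GRCm38 per the submitters' processing notes. The strand setting, the gene set and any pooling of technical replicates are not given in the sources used here. Entries that name no gene held 76.5%, 26.6%, 25.9% and 49.2% of reads (MNK-3 replicates 1 and 2, ILC2, NK) and were left out. Counts were scaled by library totals over the 30731 shared genes. Symbols, exon lengths and positions came from GENCODE M21.

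limma voom (limma 3.58.1, R 4.3.3) was fitted with 3 groups in 4 libraries, which leaves 1 residual degree of freedom, after a filter (10 counts scaled to library size, total of 15), with Benjamini-Hochberg adjusted p under 0.05. The prior degrees of freedom were infinite. On simulated data with known folds, the fit called most large changes and few 2-fold ones. The simulation gave both MNK-3 libraries the same mean for each gene, so it lacked the differences seen between them. It therefore does not show how many large changes the fit finds in these data, where Ifi27l2a did not pass. Sizes are log2 ratios of CPM + 0.5, with MNK-3 as the mean of its libraries. Counting intervals (Clopper-Pearson) and floors cover counting error only, since reads carry no molecular identifiers. Full values are given for members called, at 4-fold with 10 CPM, or leading their role group (19 members), and values of other members were added after they had been seen. Members, lists and rules were chosen with earlier results of these data known. Alternatives were other scalings, filters, fits, thinning and leaving out an MNK-3 library. Some genes of the marker and pathway lists are not reported here.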

Additional observations from a re-analysis of the deposited data

Results flagged for a closer look

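Oas1b, an oligoadenylate synthetase gene outside the 41 members, was listed for ILC2 and NK alone and so lies outside the shared genes. It had 12 counts (1.29 CPM) in ILC2 and 21 counts (4.53 CPM) in NK, above the floor of 3 counts, and no value for MNK-3 is analysed here.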

How the results depend on the processing

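The fits had no test without an MNK-3 library, since no residual degree of freedom would remain. No paired analysis was possible because NK and ILC2 have 1 library each. Leaving out an MNK-3 library moved the medians of the members to between -0.41 and 0.03 for MNK-3 over NK and between 0.47 and 1.01 for MNK-3 over ILC2. Genes called (590 for MNK-3 over NK, 828 for MNK-3 over ILC2, 328 for ILC2 over NK) came to 389 and 183 without a filter for the comparisons with NK, and to 2872, 2075 and 1883 with limma trend. They came to 124, 75 and 0 with TMM scaling, 96, 52 and 0 with median-of-ratios scaling, 92, 256 and 45 with factors from genes at 100 CPM or more, and 1601, 1289 and 1066 after thinning. For ILC2 over NK 544 and 408 genes had an unadjusted p under 0.05 with the scalings that called 0. The main split for MNK-3 over NK, 73 higher and 517 lower, was 2029 and 843 with limma trend and 821 and 780 after thinning. The main split for MNK-3 over ILC2, 228 and 600, was 1321 and 754 with limma trend, 629 and 660 after thinning and 0 and 75 with TMM scaling. Members called for MNK-3 over NK (5) were 1 without a filter, with TMM and with median-of-ratios scaling, 9 with limma trend (2 higher, 7 lower) and 0 with factors from abundant genes, where 0 had an unadjusted p under 0.05. Members called for MNK-3 over ILC2 (0) were 6 with limma trend, and for ILC2 over NK (1) they were 6 with limma trend and after thinning and 0 without a filter and with the other scalings. Median-of-ratios scaling moved the median of the members to 0.31 for MNK-3 over ILC2 and -0.74 for ILC2 over NK, while the median over all genes moved to 0.30 for MNK-3 over NK, -0.01 for MNK-3 over ILC2 and 0.21 for ILC2 over NK. Members with NK highest (15) were 11 with TMM scaling, and 13 with median-of-ratios scaling and with factors from abundant genes. Members with ILC2 lowest (16) were 8 with TMM and 9 with median-of-ratios scaling, and those with MNK-3 highest (9) were 5 with median-of-ratios scaling. These order counts were chosen after seeing the data, and shares of all genes in these orders were computed for the main setting alone. Leaving out either MNK-3 library gave 16 to 18 members with NK highest, 16 to 19 with ILC2 lowest, 10 to 13 with MNK-3 highest and 6 to 8 with MNK-3 lowest. The cause of these shifts was not tested.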

Other observations

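A wider list of 76 further interferon-responsive genes was read beside the members. For MNK-3 over NK 1 of 76 passed as higher (Ly6e) and 8 as lower (Ifi203, Ifi208, Epsti1, Sp100, Sp110, Slfn2, Shisa5 and Nlrc5), beside 0.289% and 2.04% of genes. Epsti1 had 62.0 and 64.8 CPM in MNK-3, 11.6 CPM in ILC2 and 742 CPM in NK, a log2 fold of -3.56 for MNK-3 over NK (SE 0.31, limma voom, adjusted p 1.7e-26). Sp100, a nuclear body gene, had 90.4 and 74.5 CPM in MNK-3, 116 CPM in ILC2 and 747 CPM in NK. Nlrc5, the activator of MHC class I genes, had 34.9 and 28.3 CPM in MNK-3, 37.8 CPM in ILC2 and 161 CPM in NK. For ILC2 over NK 1 passed as higher (Ly6e) and 5 as lower (Ifi203, Epsti1, Sp100, Slfn2 and Shisa5), beside 0.479% and 0.819% of genes. For MNK-3 over ILC2 Slfn9 passed as higher and Ly6a as lower, beside 0.902% and 2.37% of genes. With median-of-ratios scaling the calls of Ly6e and Slfn9 and every call for ILC2 over NK were lost. The Slfn9 call and those for ILC2 over NK were also lost with TMM scaling.

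Single genes of the wider list, picked after their values were seen, differed widely between cell types. Ifitm1, which encodes a membrane protein that blocks viral entry, had 3.98 and 0 CPM in MNK-3, 142 CPM in ILC2 and 0 CPM in NK, and Ly6a, which encodes Sca-1, had 96.4 and 126 CPM in MNK-3, 530 CPM in ILC2 and 0.862 CPM in NK. The p200 genes had no common order, with Ifi206 and Ifi209 at 128 and 230 CPM in NK against at most 2.34 and 9.25 CPM in the other libraries, and Ifi211 at 10.03 and 5.07 CPM in MNK-3, 0 CPM in ILC2 and 0.216 CPM in NK. Apol9a had 33.9 and 36.7 CPM in MNK-3, 0.538 CPM in ILC2 and 0.216 CPM in NK, and Ube2l6, the conjugating enzyme of ISG15, had 34.7 and 47.5 CPM in MNK-3, 7.64 CPM in ILC2 and 3.02 CPM in NK. Uba7, the activating enzyme of ISG15, had 89.1 and 39.8 CPM in MNK-3, 28.4 CPM in ILC2 and 52.8 CPM in NK, which lay between the MNK-3 libraries.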
